A study of Mus musculus with 21 samples.

Results

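The nuclear genes for subunits of oxidative phosphorylation were followed in Ba/F3 cells, a mouse interleukin 3-dependent pro-B line, after actuation on a digital microfluidic device or after heating. Members were all probes whose gene name in the deposited tables began with NDUFA, NDUFB, NDUFC, NDUFS or NDUFV and a digit, was SDHA, SDHB, SDHC or SDHD, or began with UQCR, with COX followed by a digit from 4 to 8, or with ATP5. The rule matched 117 of 45281 probes, or 79 of 30854 gene names, and used names only, no measured value. Probes were placed in a complex by gene name alone, so that Ndufa4 counts under complex I and Cox7a2l under complex IV. Complex I had 51 probes of 34 genes, complex II 8 of 4, complex III 8 of 7, complex IV 22 of 16 and complex V 23 of 14. The remaining 5 probes, of 4 genes, had names that fit the rule but belonged to no subunit (Emc8, Dmac2, Dmac2l and Ndufaf2) and are reported apart.

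Droplets holding the cells were driven for 15 min at 400 Vpp, the voltage from peak to peak, with a frequency of 1 or 18 kHz, and these groups formed batch A with untreated cells. In batch B, cells were held for 15 min at 42, 47 or 52 °C beside their own untreated cells. Each of the 7 groups had 3 Illumina beadchip arrays. The labels do not say whether the 3 arrays of a group came from separate cultures, and the p-values therefore reflect how far arrays of a group differed, which may be technical. All groups are of 1 established line, and the untreated cells of each batch were the only reference used for it.

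Oxidative phosphorylation passes electrons from NADH (through complex I) and from succinate (through complex II) by way of ubiquinone to complex III, then through cytochrome c to complex IV, where oxygen is reduced. Complexes I, III and IV pump protons across the inner mitochondrial membrane, and complex V, the ATP synthase, uses the returning protons to make ATP. Most subunits are encoded in the nucleus, and the mitochondrial genome encodes the others, which the rule did not match. Some subunits of complex IV occur as tissue isoforms: Cox6a2, Cox7a1 and Cox8b are best known from heart and skeletal muscle, and Cox4i2 from lung.

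Transcripts of nearly all subunits were measured in these cells. Of the 117 probes, 99 were tested in batch A and 98 in batch B, 97 in both, since 3 or more arrays of the batch had to detect a probe (a deposited detection p-value below 0.01), and 89 probes of 67 genes were detected on all 21 arrays. The filter was passed by 9 probes in batch A that were not detected on all 9 arrays and by 4 in batch B that were not detected on all 12. Detected on 0 of 21 arrays were 17 probes, among them the only probes for Ndufs1, a core subunit of complex I, Uqcrq of complex III, and the tissue isoforms Cox4i2, Cox7b2, Cox8b and Cox8c. Both probes for Sdha, the flavoprotein of complex II, and both for Cox6b2, a testis isoform, were also among the 17. The others were 1 further probe each for Ndufa6, Ndufb2, Ndufb4, Sdhc, Uqcrfs1, Cox5b and Atp5j, whose genes had another probe that was tested (for Uqcrfs1 in batch A alone). The isoforms that were measured included Cox4i1, Cox6a1, Cox6a2, Cox6b1, Cox7a1, Cox7a2, Cox7a2l, Atp5g2 and Atp5g3.

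Arrays differed in brightness with the treatment. The 95th percentile of the bead intensity lay between 277.4 and 1110.7 at 18 kHz and between 1482.4 and 1524.2 in the untreated cells of batch A, with 1 kHz at 1401.8 to 1857.1. In batch B it lay between 846 and 1082.4 at 52 °C, 861.6 and 1110.4 at 47 °C and 997.1 and 1563.7 at 42 °C, and between 1255.8 and 1537.2 in untreated cells. The median intensity of the tested member probes was 437.3 to 2083.7 at 18 kHz and 2678.6 to 2873.5 in its untreated group. From intensities of a whole sample, fewer cells and less RNA per cell cannot be told apart. Correlations between arrays of one group were taken over all 45281 probes, tested or not, on log2 intensities before correction and normalization. They were 0.925 to 0.977 at 18 kHz and 0.984 or higher in every other group. Of 12 marker genes of the line that were on the array, Ptprc, Il3ra, Csf2rb, Csf2rb2 and Cd79b were detected on all 21 arrays, while Kit, Igll1, Pax5 and Rag1 were detected on 0. Of 4 macrophage markers, Adgre1 was detected on all 21 arrays, Cd68 on 9 of batch A and 2 of batch B, and Csf1r and Cd14 on 0, and 3 of 4 T cell and 3 of 4 fibroblast markers were on 0. Of 3 erythroid markers, Hba-a1 was detected on 9 arrays of batch A and 3 of batch B. The part of other cells in the results was not tested.

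Reference sequence upstream of the subunit genes was examined because NRF1, GABPA (which binds ETS sites) and YY1 are known regulators of many respiratory chain genes. RefSeq promoters of build GRCm38.p6, from 250 bases before to 50 after the annotated start, were found for 61 of 75 subunit genes. The NRF1 core GCGCANGCG, sought on both strands, lay in the windows of 19 of the 61 genes (31.1%) and in those of 7.03% of all 27025 genes in the table. The YY1 motif AAGATGGCG lay in 7 (11.5%, against 1.64% of all genes), the ETS motif CCGGAAGT in 4 (6.56%, against 4.31%) and the heat shock element GAANNTTC in 4 (6.56%, against 9.04%). Of all 32851 windows, several for some genes, 6.25%, 1.4%, 3.89% and 7.86% held the NRF1, YY1, ETS and heat shock letters. The 4 genes with the heat shock letters were Atp5b, Atp5c1, Cox5a and Sdha. These are matches of letters and not sites of binding.

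The 120 bases before the start are shown for 7 of the subunit genes that changed in heat, so that the sequence can be read beside their values; Uqcrb and Cox6a2 are named only. Capitals mark the NRF1 letters in Atp5g2, where matches on both strands overlap, and none of the other 6 stretches holds any of the 4 motifs. Ndufa9 has the YY1 letters and Ndufs3 the ETS letters after the start, outside the stretch shown. The stretches lie at chr15:102671048-102671167 on the minus strand (Atp5g2), chr7:3617253-3617372 on the plus strand (Ndufa3), chr7:30184051-30184170 on the plus strand (Cox7a1), chr6:126849145-126849264 on the minus strand (Ndufa9), chr2:90904722-90904841 on the minus strand (Ndufs3), chr4:140961151-140961270 on the plus strand (Sdhb) and chr3:105959264-105959383 on the minus strand (Atp5pb), each written 5′ to 3′ on the gene's strand.
Atp5g2: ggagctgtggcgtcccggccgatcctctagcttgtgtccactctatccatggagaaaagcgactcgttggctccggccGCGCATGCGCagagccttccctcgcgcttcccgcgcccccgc
Ndufa3: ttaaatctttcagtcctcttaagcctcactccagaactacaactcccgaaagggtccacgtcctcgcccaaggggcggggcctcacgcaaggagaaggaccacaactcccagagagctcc
Cox7a1: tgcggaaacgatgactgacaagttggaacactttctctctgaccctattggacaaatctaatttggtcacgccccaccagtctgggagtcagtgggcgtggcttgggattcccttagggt
Ndufa9: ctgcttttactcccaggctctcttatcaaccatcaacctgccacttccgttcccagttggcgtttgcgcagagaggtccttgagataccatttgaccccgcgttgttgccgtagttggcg
Ndufs3: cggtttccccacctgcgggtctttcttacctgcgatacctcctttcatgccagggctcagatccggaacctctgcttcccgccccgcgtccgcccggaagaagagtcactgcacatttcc
Sdhb: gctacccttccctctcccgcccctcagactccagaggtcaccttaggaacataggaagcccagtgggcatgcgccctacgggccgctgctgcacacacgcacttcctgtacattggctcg
Atp5pb: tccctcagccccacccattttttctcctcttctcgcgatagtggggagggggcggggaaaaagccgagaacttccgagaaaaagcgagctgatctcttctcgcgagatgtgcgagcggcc

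Most subunit transcripts moved little in any treatment. A probe was called changed when limma's moderated test, adjusted by Benjamini-Hochberg over all tested probes of the comparison, gave an adjusted p below 0.05. Over 7 comparisons 14 member probes of 13 genes were called at least once. The share of all probes called at least once is not given, so this count has no background beside it. Shares for each comparison stand beside its own count below. Counts under other scalings or with arrays left out come without such shares. They do not tell whether members changed more often than other probes. Differences between group means within 0.5 on the log2 scale of the normalized intensity were found for 88.9% of the tested member probes at 1 kHz, 86.9% at 18 kHz, 96.9% at 42 °C, 88.8% at 47 °C and 89.8% at 52 °C, against 95.4%, 75.9%, 90.1%, 80.9% and 77.4% of all tested probes. When all probes were parted into 5 equal bins by mean signal, 68 of 99 members in batch A and 67 of 98 in batch B lay in the highest bin. From the lowest bin to the highest, 4.1, 2.8, 3.5, 2.69 and 2.26% of all probes were called at 18 kHz. At 52 °C the shares were 8.75, 13.8, 17.5, 14.5 and 10.3%.

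**Figure D1:**
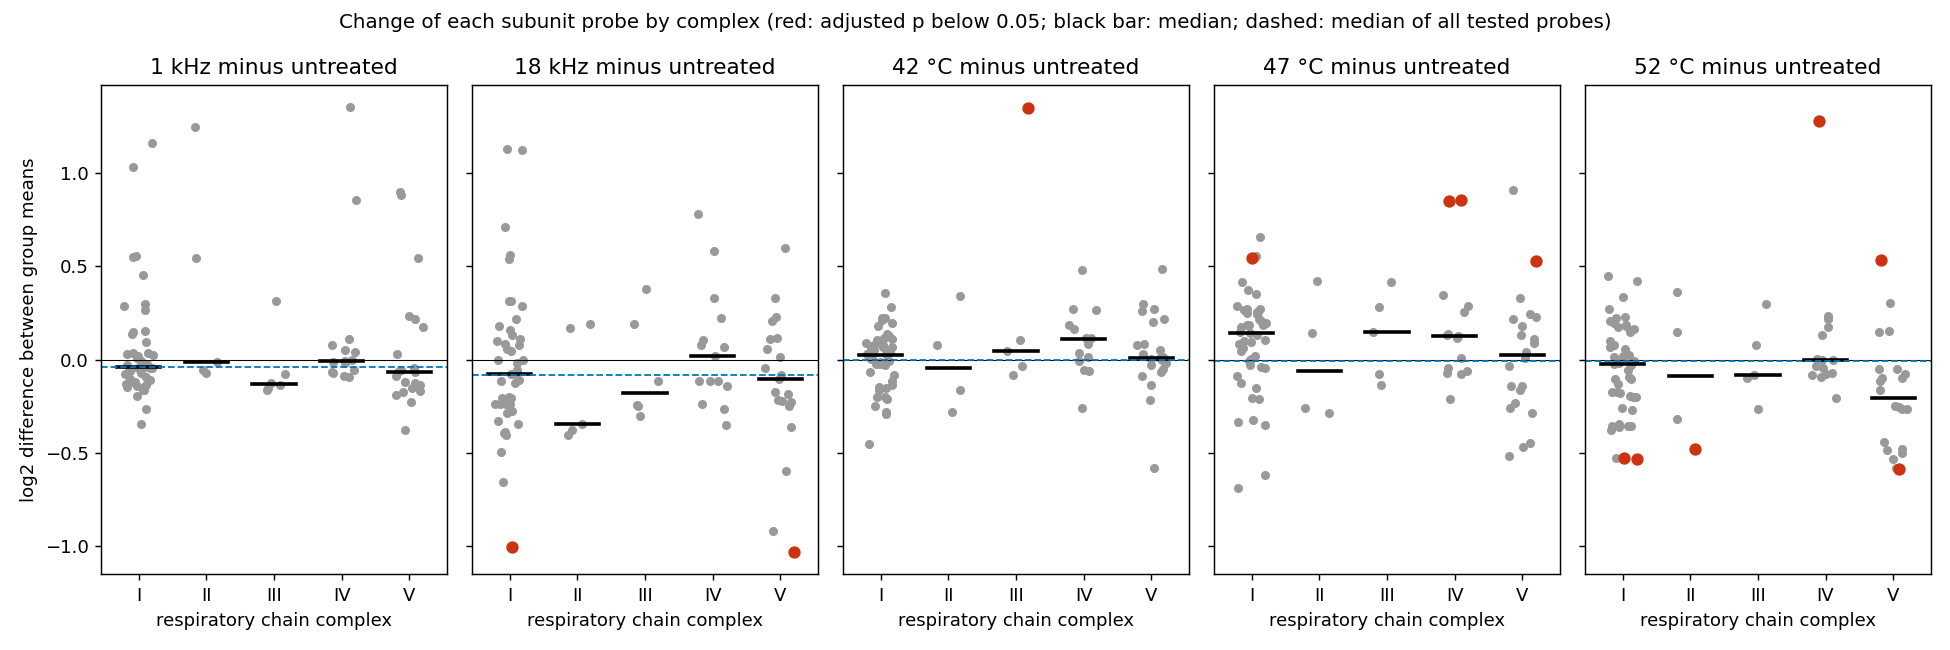
Log2 difference between each treatment's mean and that of the untreated group of its batch, 1 point per subunit probe, by complex, for 94 probes in batch A and 93 in batch B. Red points passed the test, black bars are medians and the dashed line is the median of all tested probes. The called Uqcrb point at 42 °C stands at 1.35 and the called Cox6a2 point at 52 °C at 1.28, and complex V has its median furthest below 0 at 52 °C, at -0.21.

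At 42 °C 1 member probe passed the test. Uqcrb, a small accessory subunit of complex III, rose. Its probe read 9.16, 9.14 and 9.21 (log2 intensity) on the 42 °C arrays and 7.78, 7.76 and 7.93 on the untreated arrays. All 42 °C arrays lay more than 1 log2 unit above all untreated arrays. The difference was 1.35 ± 0.14 (SE, n = 3 and 3), 2.54-fold, with an adjusted p of 0.000203 in limma. The value was 1.30 and 1.40 within each of the 2 beadchips of batch B and 1.34 with the beadchip as a block, and Uqcrb passed the test in each of 6 fits that left out 1 array. At 47 °C the same probe read 8.04, 8.43 and 8.24 and at 52 °C 7.97, 8.16 and 8.24, again above the untreated arrays without overlap but without passing the test (0.41, adjusted p = 0.0819, and 0.30, adjusted p = 0.164). The direct comparison of 52 with 42 °C gave a fall of 1.05 in log2 units (-1.05 ± 0.14 SE, adjusted p = 0.00088), so that the level was higher at 42 °C than at 52 °C beyond the spread between arrays. Uqcrb had a single probe on the array.

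That 1 call stood beside 1.18% of all 13773 probes called higher and 1.23% called lower at 42 °C. No member was called lower. Of the 98 member probes 17 had groups that did not overlap (27.2% of all probes did) and 6 had an unadjusted p below 0.05 (14.9% of all probes). None of the other 4 tested members of complex III passed: Uqcr11, a small subunit, was at 0.10, Uqcrc1, a core protein of the complex, at 0.04, Uqcrh, which sits by the cytochrome c docking site, at -0.04 and Uqcrc2, the other core protein, at -0.08. The medians by complex were 0.02 (I), -0.04 (II), 0.05 (III), 0.11 (IV) and 0.01 (V), against 0 over all probes. The most negative difference was that of 1 of 2 Atp5k probes, a small membrane subunit of the ATP synthase, at -0.58 (adjusted p = 0.204), while the second was at 0.20.

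**Figure D2:**
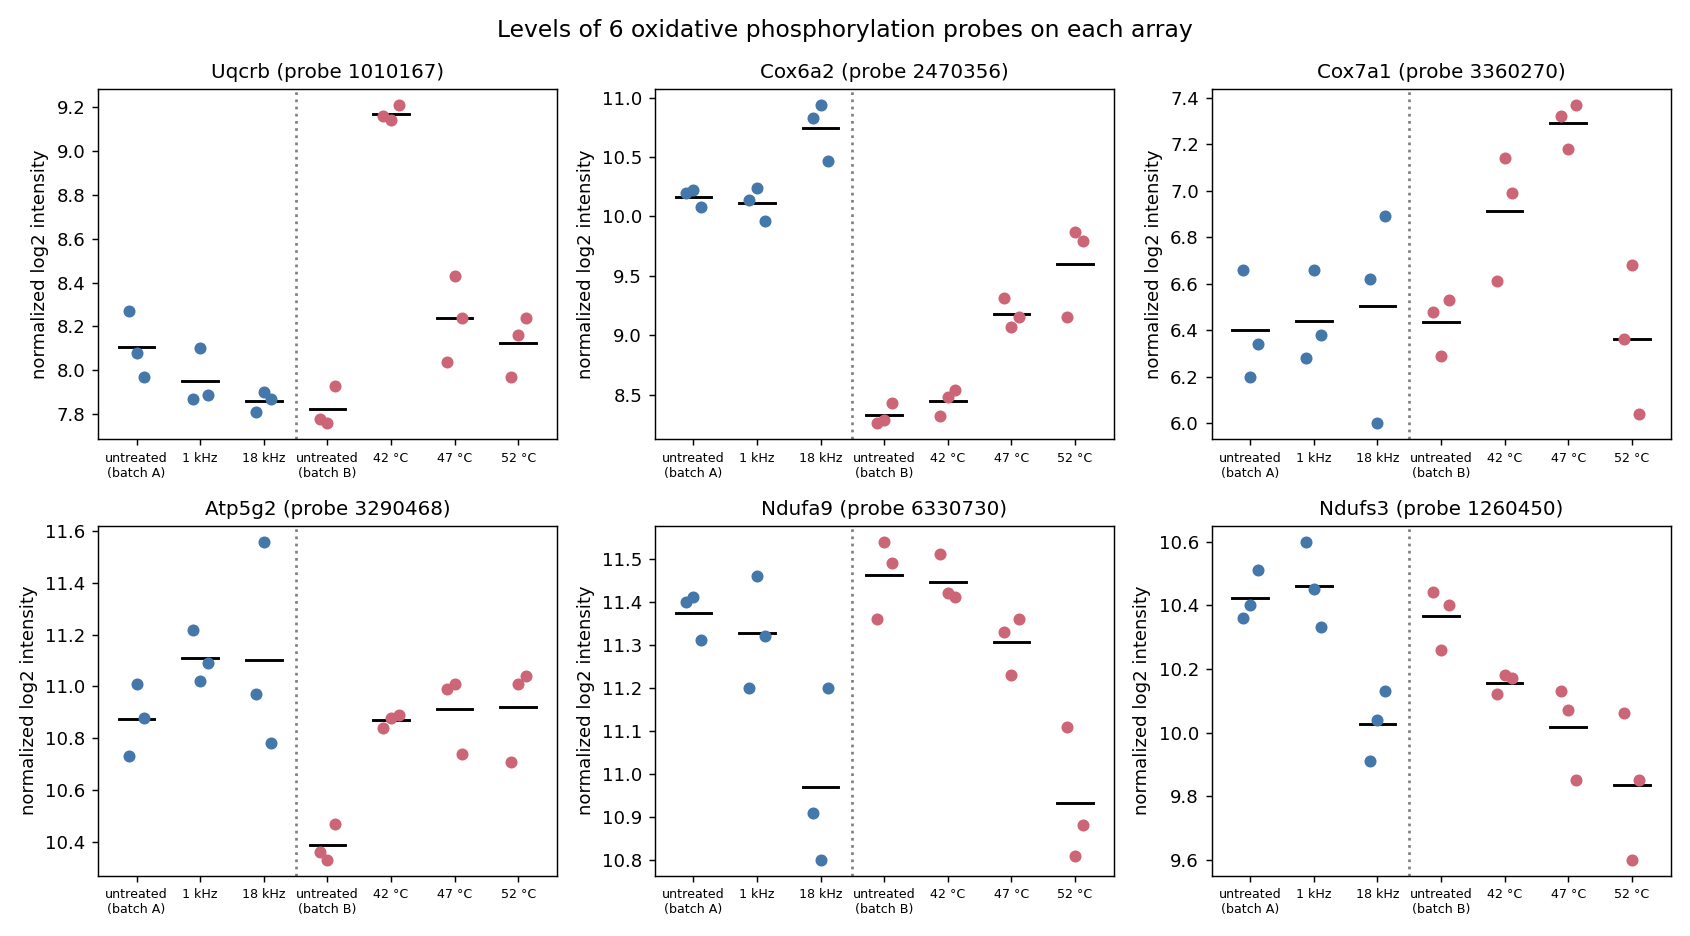
Normalized log2 intensity of 6 member probes on each of the 21 arrays, with a bar at each group's mean; the dotted line parts batch A from batch B, which were normalized apart and are not to be compared in level. Uqcrb stands at 9.14 to 9.21 at 42 °C, and Cox6a2 at 9.07 or above on every 47 and 52 °C array and at 8.54 or below on the 42 °C and untreated arrays of batch B.

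At 47 °C 4 member probes rose and 0 fell, where 3.46% of all probes were called higher and 4.47% lower. With scaling by the median alone 0 members rose and 19 fell, and those shares do not apply to these counts. The 2 largest rises among the 4 called probes were muscle isoforms of complex IV. Cox6a2 read 9.31, 9.07 and 9.15 against 8.26, 8.29 and 8.43 in untreated cells, a difference of 0.85 ± 0.18 (SE, adjusted p = 0.0185). Cox7a1 read 7.32, 7.18 and 7.37 against 6.48, 6.29 and 6.53, a difference of 0.86 ± 0.18 (SE, adjusted p = 0.0193). The 47 °C arrays lay above all untreated arrays on both probes. Cox6a1, the form found in most tissues, differed by 0.01 and -0.05 on its 2 probes, Cox7a2 by 0.14, and the 2 probes of Cox7a2l, a relative that takes part in supercomplexes, by -0.21 and 0.26.

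Atp5o probe 3520215 had a larger difference, 0.91, with groups apart, and did not pass (adjusted p = 0.135), and the other Atp5o probes were at 0.11 and -0.14. The other 2 rises at 47 °C were 1.44- and 1.46-fold. Atp5g2, 1 of the genes for subunit c of the ATP synthase rotor, read 10.99, 11.01 and 10.74 against 10.36, 10.33 and 10.47 (0.53 ± 0.13 SE, adjusted p = 0.0344). Ndufa3, an accessory subunit of complex I, read 10.74, 10.80 and 10.62 against 10.25, 10.22 and 10.07 on one probe (0.54 ± 0.14 SE, adjusted p = 0.0348), and its second probe differed by 0.37 (adjusted p = 0.0733). No array of either treated group overlapped the untreated ones. With 1 array left out, 0 to 5 member probes passed, Atp5g2 and Ndufa3 in 0 of 6 fits and Cox6a2 and Cox7a1 in 3 of 6. The count was 0 without 47 °C replicate 3, without untreated replicate 2 and without untreated replicate 3.

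The middle of the members lay higher than that of all probes at 47 °C, with a median of 0.12 for the 98 member probes and -0.01 for all probes, and 64 of 98 differences above 0. The medians by complex were 0.14 (I, 33 of 47 above 0), -0.06 (II), 0.15 (III), 0.12 (IV) and 0.02 (V). Groups did not overlap for 33 member probes (34% of all probes), and 18 had an unadjusted p below 0.05 (25.8% of all probes).

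At 52 °C members went both ways, with 3 probes higher and 5 lower, and 6.65% of all probes were called higher and 6.32% lower. With scaling by the median alone 2 members were higher and 41 lower, and those shares do not apply to these counts. Cox6a2 rose most. It read 9.15, 9.87 and 9.79 against 8.26, 8.29 and 8.43 in untreated cells, with replicate 1 nearest to them. The difference was 1.28 ± 0.18 (SE), 2.42-fold (adjusted p = 0.00163), and it passed in 6 of 6 fits with 1 array left out. Within the 2 beadchips it was 1.43 and 1.25, and 1.33 with the beadchip as a block. Against 42 °C, where Cox6a2 read 8.32, 8.48 and 8.54, it was higher by 1.16 ± 0.18 (SE, adjusted p = 0.0024). Cox7a1 did not pass the test at 52 °C: it read 6.36, 6.68 and 6.04, overlapping the untreated arrays (-0.08, adjusted p = 0.81). The 2 probes of Cox6a1 were at -0.09 and -0.04.

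Atp5g2 rose at 52 °C by nearly the same amount as at 47 °C, reading 10.71, 11.01 and 11.04 (0.54 ± 0.13 SE, adjusted p = 0.0248). At 42 °C it read 10.84, 10.88 and 10.89, also above every untreated array, and did not pass the test (0.48, adjusted p = 0.0919). Atp5g3, another gene for subunit c, did not pass at 52 °C (-0.48, adjusted p = 0.0548), and it differed by -0.22 at 42 °C and -0.17 at 47 °C. The difference between the 2 genes was not tested. With scaling by the median alone, the sign of Atp5g2 at 52 °C turned to -0.04, while the median of all probes was then -0.43.

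The falls at 52 °C were 1.39- to 1.50-fold and lay, for subunits, in complexes I, II and V. Ndufa9, an accessory subunit near the membrane joint of complex I, read 11.11, 10.81 and 10.88 against 11.36, 11.54 and 11.49 (-0.53 ± 0.13 SE, adjusted p = 0.0202). Against 42 °C it was also lower (-0.51, adjusted p = 0.0302). Ndufs3, a core subunit of complex I, read 10.06, 9.60 and 9.85 against 10.44, 10.26 and 10.40 (-0.53 ± 0.14 SE, adjusted p = 0.0321). It read 10.12 to 10.18 at 42 °C and 9.85 to 10.13 at 47 °C, below all untreated arrays in both without passing the test. Sdhb, the iron-sulfur subunit of complex II, read 9.99, 9.93 and 9.80 against 10.45, 10.35 and 10.36 on one probe (-0.48 ± 0.13 SE, adjusted p = 0.0361), and its second tested probe differed by -0.32 (adjusted p = 0.141).

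Atp5pb, subunit b in the stalk of the ATP synthase, had 4 tested probes with values of both signs. Probe 5050315 read 11.38, 10.81 and 10.98 at 52 °C against 11.54, 11.64 and 11.75 (-0.59 ± 0.17 SE, adjusted p = 0.0422). The other 3 differed by -0.50, -0.25 and 0.15 and were not called. Against 42 °C the call fell on another of them, probe 5870402, at 6.98 ± 0.19 against 7.52 ± 0.13 (SD, n = 3 and 3; -0.55, adjusted p = 0.0437), while probe 5050315 differed by -0.52 (adjusted p = 0.0892).

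Across the ATP synthase, 18 of 22 probes (14 genes) at 52 °C lay below 0, as did 7014 of all 13773 probes. The median was -0.21 against -0.01 for all probes. The catalytic subunits differed by -0.08 (Atp5a1) and -0.27 (Atp5b), and the rotor stalk by -0.16 (Atp5c1) and 0.30 (Atp5d). The 3 probes for Atp5o, which couples the stalk to the catalytic head, differed by -0.53, -0.25 and -0.58. None of these 7 passed the test. The medians of the other complexes were -0.02 (I), -0.09 (II), -0.08 (III) and 0 (IV). For the 98 members the median was -0.06, 28 had groups that did not overlap (31% of all probes) and 23 had an unadjusted p below 0.05 (29.9% of all probes).

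The count at 52 °C depended on single arrays. Leaving out 52 °C replicate 1 gave 5 higher and 15 lower, and leaving out 52 °C replicate 2 or replicate 3 gave 1 higher and 0 lower, while Cox6a2 passed in all 3. Without untreated replicate 1 it was 2 higher and 3 lower, and without untreated replicate 2 or replicate 3 it was 2 higher and 0 lower. Of the 6 fits without 1 array, Dmac2l passed in 4, Ndufa9 and Emc8 in 2, and Ndufs3, Sdhb, Atp5pb probe 5050315 and Atp5g2 in 1. Of the 8 calls 2 belonged to names that are no subunit. Dmac2l, listed in the files under an ATP synthase name, read 5.98, 6.79 and 6.75 against 5.39, 5.35 and 5.68 (1.03 ± 0.22 SE, adjusted p = 0.0127), and Emc8, of a complex in the endoplasmic reticulum, fell by 0.48 in log2 units on 1 of 2 probes (-0.48, adjusted p = 0.0468), the second differing by the same -0.48 without passing. With the beadchip as a block Emc8 was at -0.45 and did not pass (adjusted p = 0.0529).

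Between 52 and 42 °C the members had 1 probe called higher, Cox6a2, and 3 called lower, those of Uqcrb, Ndufa9 and Atp5pb. Of all probes 3.86% were called higher and 3.64% lower. The member counts were 1 and 9 with scaling by the median alone. Without 52 °C replicate 1 they were 2 and 8, and those shares apply to neither setting. Groups were apart for 18 members (26.7% of all probes), and 13 had an unadjusted p below 0.05 (23.5% of all probes). The median of the members was -0.08 and that of all probes -0.01. This comparison shares its 52 °C arrays with the one against untreated cells.

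At 18 kHz 2 member probes fell and 0 rose, beside 1.77% of all 14130 probes called lower and 1.3% called higher. With scaling by the median alone 49 members fell and 0 rose, and those shares do not apply to these counts. Atp5o probe 3520215 read 5.03, 4.68 and 5.09 against 6.0, 6.07 and 5.84 (-1.03 ± 0.14 SE, adjusted p = 0.0153). It was not well above background on any 18 kHz array, so that its level there is only bounded, and the lowest detected signal left no fold to state. The other Atp5o probes differed by -0.05 and -0.17, and neither passed. In fits without 1 array the call of probe 3520215 held in 3 of 6 (adjusted p up to 0.079). The count of 2 fell to 1 with the beadchip as a block, to 0 within the second beadchip, to 1 without 18 kHz replicate 1 or replicate 2, and to 0 without any one of the 3 untreated arrays, while without 18 kHz replicate 3 it was 28.

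Several members at 18 kHz had groups apart without passing the test. Cox6a2 read 10.83, 10.94 and 10.47 against 10.20, 10.22 and 10.08 in untreated cells (0.58 ± 0.15 SE, adjusted p = 0.0631), and it read 10.14, 10.24 and 9.96 at 1 kHz. Ndufb10, an accessory subunit of complex I named here after its values were seen, read 10.19, 10.51 and 9.25 on probe 1300725 against 9.01, 8.66 and 8.91 (1.12 ± 0.28 SE, adjusted p = 0.0624), and its second probe differed by 1.13 (adjusted p = 0.157). The 2 probes of Sdhb detected on all arrays differed by -0.38 and -0.41, Ndufs3 by -0.40 and Ndufa9 by -0.40. In all, 25 member probes had groups apart (30.3% of all probes) and 21 an unadjusted p below 0.05 (28.6% of all probes).

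The medians by complex at 18 kHz were -0.08 (I), -0.34 (II, 5 probes of 3 genes), -0.18 (III), 0.02 (IV) and -0.11 (V), and -0.08 for the members and for all probes alike. In complex II the 3 probes below 0 were all of Sdhb (-0.406 to -0.345), and Sdhc and Sdhd lay above 0. Of these, Sdhb probe 1470709 was detected on only 1 of 3 arrays at 18 kHz. The 18 kHz arrays differed most among themselves, and replicate 3 was the brightest. Without it 7 member probes were called higher and 21 lower. With replicate 3 as the only 18 kHz array, whose spread was then taken from the other groups, 0 were called in either direction. Against 1 kHz 0 members were called by limma, while 1.49% of all probes were called higher and 0.998% lower. Scaling by the median alone gave 0 members higher and 58 lower. Leaving out 18 kHz replicate 3 gave 8 and 14, and those shares apply to neither setting. With quantile normalization of all arrays, 27 members had groups apart between 18 and 1 kHz (28.6% of all probes). An unadjusted p below 0.05 was found for 21 (27.2% of all probes), among them Cox6a2, higher by 0.64 (adjusted p = 0.0561).

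At 1 kHz 0 members and 0 of all 14130 probes were called by limma in either direction, 0% higher and 0% lower. The unadjusted p was below 0.05 for 1 member (1.76% of all probes), and groups were apart for 9 (13.3% of all probes). The median of the members was -0.04, as that of all probes. Yet 11 member probes differed by 0.5 or more, all upward, up to 1.35 for Cox7b, a subunit of complex IV, and 1.25 for Sdhb probe 1470709.

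These 11 probes, named after their values were seen, read higher on 1 of the 2 beadchips of batch A. On that beadchip, called the first here, lay 3 arrays, 1 kHz replicates 1 and 3 and 18 kHz replicate 1. The other 6, with all untreated arrays, lay on the second. The first beadchip thus held actuated arrays only. In a fit of the beadchip beside the groups, 12 member probes were called higher on the first beadchip and 0 lower, where 3.67% of all probes were called higher and 0.0425% lower. Of the 11 probes 10 were among them, and the other, Ndufa5 probe 6560152, had a beadchip difference of 0.97 (adjusted p = 0.0567). Cox7b read 10.70 and 10.13 in 1 kHz replicates 1 and 3, 10.41 in 18 kHz replicate 1, and 8.30 to 8.78 on the 6 arrays of the second beadchip. Its beadchip difference was 1.89 (adjusted p = 0.00317).

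Replicate 2 of 1 kHz, on the second beadchip with the untreated arrays, differed from the untreated mean by -0.21 to 0.05 over the 12 probes. The mean of replicates 1 and 3 differed by 0.53 to 2.01. The 12 probes were chosen by the beadchip difference on these same arrays, so these values are description and no test. The largest beadchip difference was that of Ndufc2 probe 6960180, an accessory subunit of complex I, at 2.41 (adjusted p = 0.016), with 8.18 to 8.76 on the first and 4.65 to 6.97 on the second. The others were Sdhb probe 1470709 at 1.81, Ndufb4 at 1.62, Cox7a2l probe 5960327 at 1.44, Atp5e, the smallest subunit of the catalytic part of the ATP synthase, at 1.29, Atp5pb probe 1400681 at 1.23, Ndufb5 at 0.95, Atp5a1 at 0.94, Sdhd, a membrane anchor of complex II, at 0.93, Ndufb2 at 0.82 and Ndufb9 at 0.77.

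Other probes of the same genes did not follow the beadchip. Of the 12 genes, 4 had other tested probes, 7 in all, and for each of the 7 the arrays of both beadchips overlapped. The second Ndufc2 probe read 10.35 to 10.48 on the first and 10.39 to 10.85 on the second, and the other Sdhb probes 10.40 to 10.89 against 10.38 to 10.89 and 9.98 to 10.47 against 9.94 to 10.51. Over all tested members, 16 probes (16.2%) had every array of the first beadchip above every array of the second, against 6.81% of the 14031 other probes. In batch B, where each beadchip held 6 arrays and every group lay on both, 0 members and 0 of the 13675 other probes were called between beadchips.

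**Figure D3:**
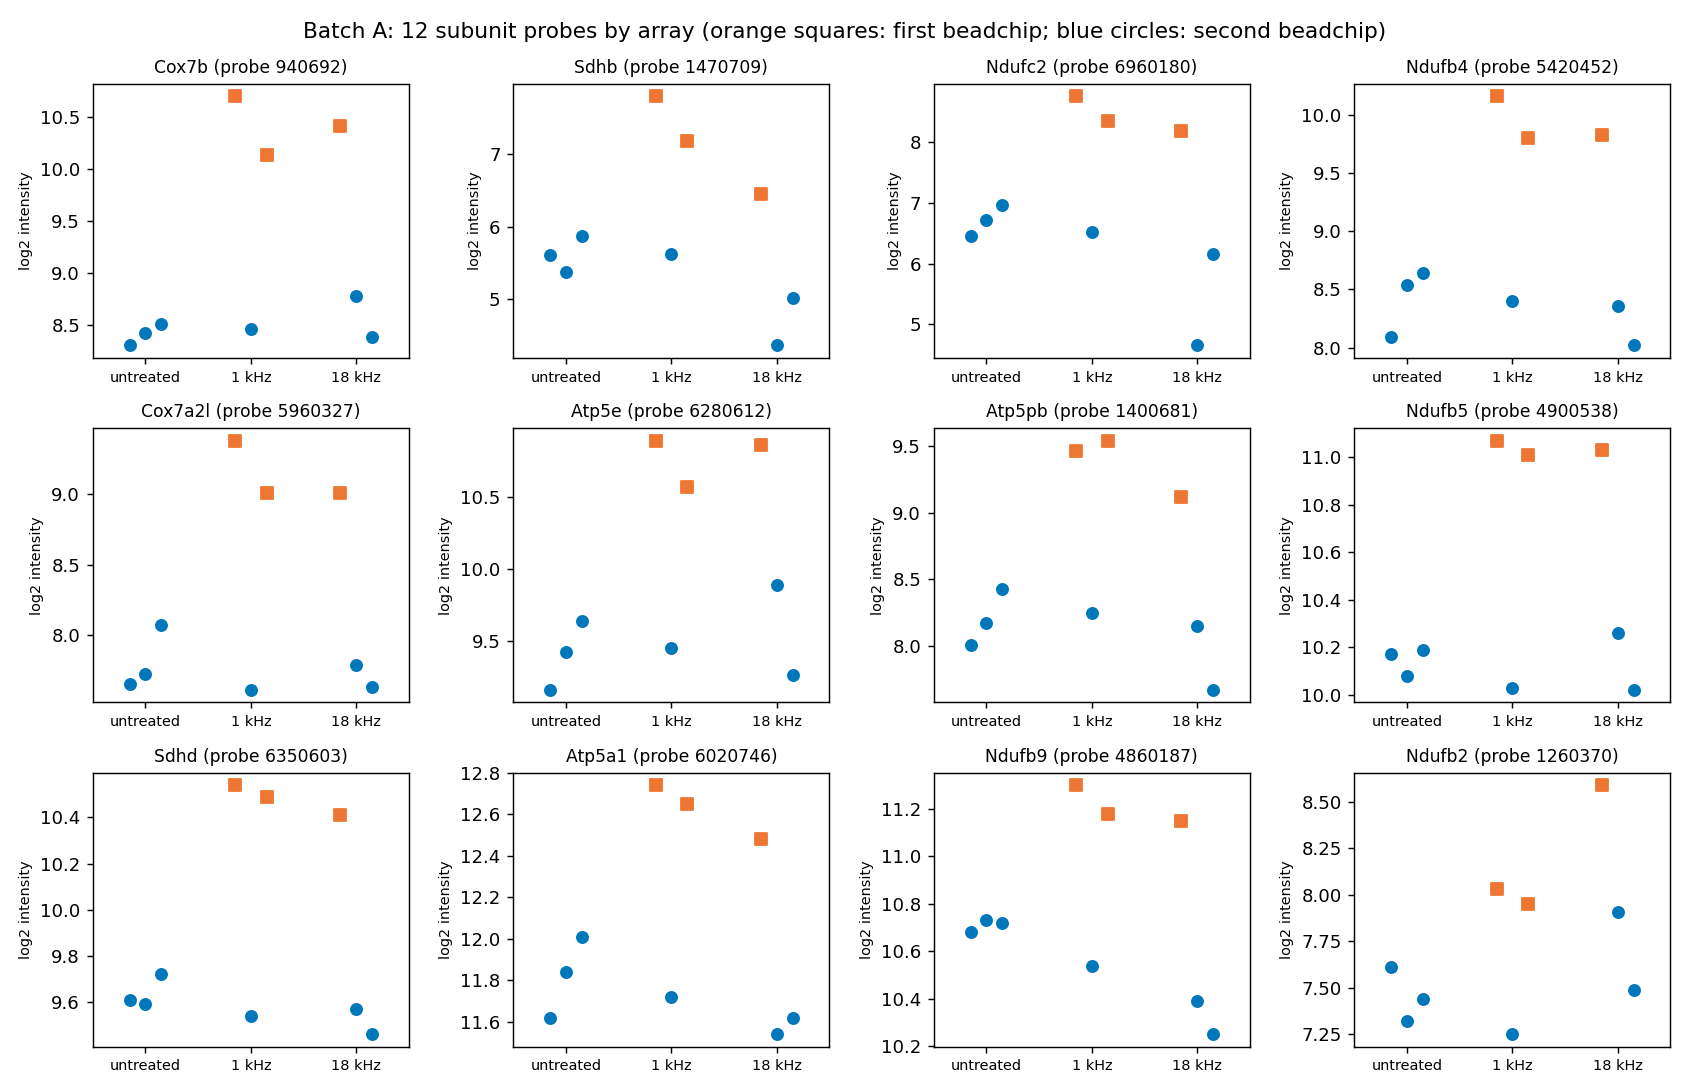
Normalized log2 intensity of the 12 member probes called higher on the first beadchip of batch A, on each of its 9 arrays; squares are the 3 arrays of the first beadchip and circles the 6 of the second. On every probe the squares lie above the circles. The single 1 kHz array of the second beadchip differs from the untreated mean by -0.21 to 0.05. The probes were chosen by the beadchip difference on these same arrays, so the gap follows from the choice and is no test.

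A share of each array's own signal needs no scaling between arrays. The summed signal of the tested subunit probes, 94 in batch A and 93 in batch B, was taken as a share of all background-corrected signal of the array. It was 2.33, 2.34 and 2.41% in the untreated cells of batch A, 2.22 to 2.37% at 1 kHz and 1.75, 2.00 and 2.31% at 18 kHz. In batch B it was 2.48 to 2.53% in untreated cells, 2.44 to 2.57% at 42 °C, 2.43 to 2.59% at 47 °C and 2.19, 2.20 and 2.34% at 52 °C. All 18 kHz arrays lay below the untreated arrays of their batch, and all 52 °C arrays below theirs, while the 42 and 47 °C arrays overlapped them. No test was made of these shares. The dimmest 18 kHz array, replicate 2, had the lowest share and the brightest, replicate 3, the highest of its group. By complex, every 52 °C array lay below every untreated array of batch B for I (0.80 to 0.84% against 0.92 to 0.95%), II (0.037 to 0.038% against 0.040 to 0.043%), III (0.14 to 0.16% against 0.16 to 0.18%) and V (0.69 to 0.75% against 0.80 to 0.84%), and complex IV overlapped (0.49 to 0.55% against 0.54 to 0.55%).

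**Figure D4:**
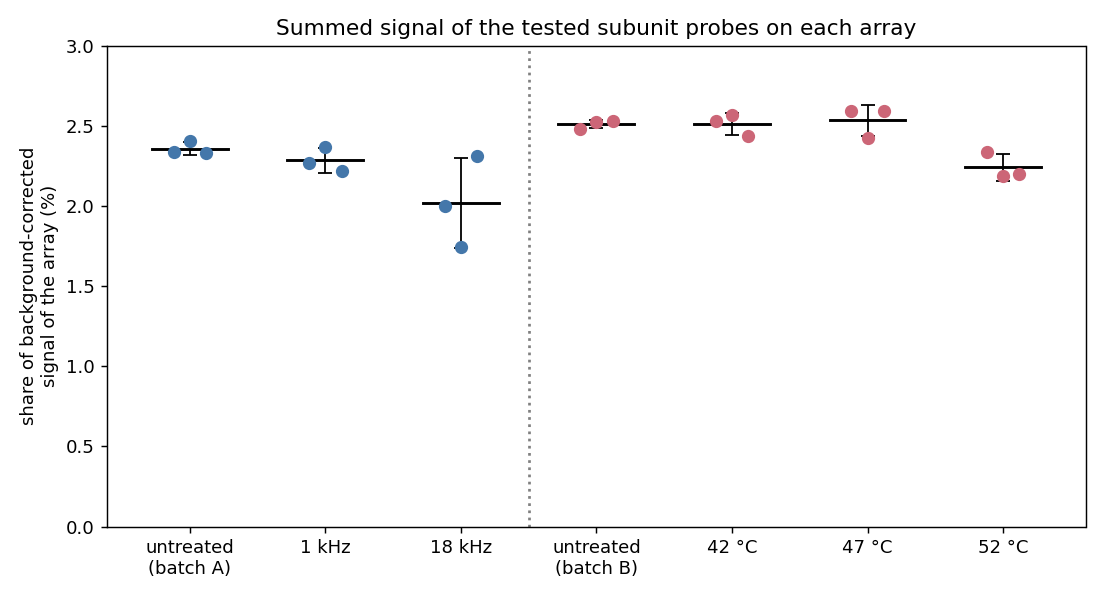
Share of each array's background-corrected signal taken by the tested subunit probes, in percent, by group; bars are means, whiskers 1 SD over 3 arrays. The mean was 2.24 ± 0.085% at 52 °C against 2.51 ± 0.0251% in untreated cells of batch B, and 2.02 ± 0.281% at 18 kHz against 2.36 ± 0.0422% in those of batch A.

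Central subunits of the 5 complexes, among them those that carry redox centres or catalytic sites, were read as a list of 22 genes, 20 of them tested in batch A and 19 in batch B. Over their 26 probes at 18 kHz the median was -0.23, with 2 called lower, among them Atp5o, and 0 higher, where the median of all probes was -0.08 and 1.77% of them were called lower. At 52 °C the median over 24 probes of 19 genes was -0.15, with 2 called lower (Ndufs3 and Sdhb) and 19 of 24 probes below 0. The median of all 13773 probes was -0.01, with 6.32% of them called lower and 7014 below 0. At 42 and 47 °C the medians were 0.04 and 0.07, and 0 were called in either direction. Cox4i1, the main form of a large nuclear subunit of complex IV, ranged from -0.02 to 0.13 over the 5 treatments against untreated cells, and Cox5a, a matrix-facing subunit of that complex, from -0.26 to -0.01. In the electron input of complex I, Ndufv1, which binds NADH, ranged from -0.27 to 0.21 and Ndufv2 from -0.10 to 0.06. Ndufs7 and Ndufs8, iron-sulfur subunits of complex I, ranged from -0.04 to 0.23 and from -0.24 to 0.17. Sdhc, a membrane anchor of complex II, was at 0.34, 0.42 and 0.36 at 42, 47 and 52 °C and at 0.19 and -0.08 at 18 and 1 kHz, and none of these passed the test (lowest adjusted p = 0.112). The closest to a call among these 7 genes was Ndufv1 between 52 and 42 °C, at -0.48 (adjusted p = 0.0667) with the groups apart.

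Genes with several tested probes showed how far a call rests on the probe. Batch A had 22 such genes and batch B 23, and the sign differed between probes of one gene for 8 at 18 kHz, 7 at 1 kHz, 11 at 42 °C, 12 at 47 °C and 2 at 52 °C. A call fell on some of a gene's probes for 2 genes at 18 kHz, Atp5o among them, 1 at 47 °C (Ndufa3) and 3 at 52 °C (Sdhb, Atp5pb, Emc8).

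Genes that build, feed or regulate the chain were called in heat in small numbers, and in batch A 0 passed limma's adjusted test. At 18 kHz an unadjusted p below 0.05 was found for 9 assembly factors, 4 carriers and 2 regulators (28.6% of all probes). At 1 kHz it was found for 0 of these genes (1.76% of all probes). The lists held 47 assembly factors (36 measured), 14 carriers and exchangers (12 measured) and 14 regulators (12 measured). Each of these genes was read by its tested probe with the highest mean signal in the batch, and any other probes were not read. At 42 °C, where 1.18% of all probes were called higher and 1.23% lower, 2 assembly factors were higher and 1 lower, and 1 regulator was lower. Atpaf2, an assembly factor of the catalytic part of the ATP synthase, rose from 9.40 ± 0.40 to 11.75 ± 0.54 (SD, n = 3 and 3; difference 2.35, adjusted p = 0.00404). Bcs1l, which inserts the iron-sulfur protein into complex III, rose by 0.65 (adjusted p = 0.0421), Cox11, a copper chaperone of complex IV, fell by 0.99 in log2 units (-0.99, adjusted p = 0.00886), and Pprc1, a coactivator of respiratory genes, fell (-0.65, adjusted p = 0.036).

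At 47 °C 1 of these genes was called, Bcs1l (0.59, adjusted p = 0.0344), where 3.46% of all probes were called higher. At 52 °C the 36 assembly factors had 2 higher and 2 lower, beside 6.65% of all probes called higher and 6.32% lower: Ndufaf1 (0.50) and Bcs1l (0.50), and Ndufaf4 (-0.85) and Cox11 (-0.58). Among the regulators Gabpa, the DNA-binding subunit of an ETS factor, was lower at 52 °C (-1.32, adjusted p = 0.0192, detected on 2 of 3 arrays) and Myc higher (0.94, adjusted p = 0.0442). Between 52 and 42 °C, with 3.86% of all probes called higher and 3.64% lower, Atpaf2 and Coa6, a factor for complex IV, were lower (-2.53 and -0.56), Pprc1 and Polrmt, the mitochondrial RNA polymerase, higher (0.83 and 0.51) and Gabpa lower (-1.18). Of the carriers and exchangers, such as cytochrome c and the ADP/ATP translocases, 0 of 12 were called by limma in any comparison. Their unadjusted p in limma was below 0.05 for 0, 1 and 2 at 42, 47 and 52 °C. For the 36 assembly factors these counts were 8, 13 and 11, and for the 12 regulators 2, 2 and 4. Of all probes 14.9, 25.8 and 29.9% had such a p.

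Quantile normalization gives the arrays of a batch one distribution, and all differences above are relative to it. With scaling by the median alone, the median of all probes was -1.09 at 18 kHz, -0.15 at 42 °C, -0.46 at 47 °C and -0.43 at 52 °C, and that of the members -1.14, -0.08, -0.35 and -0.56. The median of the members thus lay above that of all probes at 47 °C and below it at 52 °C under either scaling. Over all alternatives tried, Cox6a2 at 52 °C was higher than in untreated cells by at least 0.75 and Uqcrb at 42 °C by at least 0.98 in log2 units.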

How the data were processed

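Total RNA of 21 samples was read on Illumina mouse beadchips, 9 arrays in batch A and 12 in batch B. A further 3 arrays of batch A matched no sample and were not used. The deposited intensities are mean bead brightness per probe, per the file headers without normalization or background subtraction. The deposited detection p-values compare each probe with the array's negative controls. The authors also deposited a log2 value per probe (40083 probes, 111 members) centred on each probe's median, whose normalization between arrays is not given in the sources used here, and it served as an alternative.

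Intensities were background-corrected by normexp with detection p-values (limma 3.58.1 in R 4.3.3), raised by an offset of 16, quantile-normalized within each batch and taken as log2. Levels were not compared between batches or between probes. Probes with a detection p-value below 0.01 on 3 arrays of the batch were tested (14130 and 13773), all groups of a batch in 1 limma fit with eBayes (prior degrees of freedom 2.7 and 4.7), with adjustment over all tested probes. A probe not detected on any array of a group has only a bound there. Gene names came from the files, with current symbols through RefSeq accessions for 106 members and by other fields for 11. The number of arrays, 3 a group, limits the precision. No 2 arrays held identical values (0 pairs). The fit was tested on simulated data.

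The members and lists were chosen with earlier results of these data known. Named are up to 12 called members in each direction per comparison, 22 central subunits, tissue isoforms, genes whose probes differ in sign or call, and up to 4 called genes of the pathway lists. The values of 1 member are not reported here. Beadchip and replicate blocks, other corrections, filters and scalings, and fits without 1 array were tried as alternatives.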

Additional observations from a re-analysis of the deposited data

Results flagged for a closer look

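The heat responses at 52 and at 42 °C differed, by limma's direct test between these groups, for 4 member probes, and each response is taken against the same untreated arrays. Uqcrb was lower at 52 than at 42 °C (-1.05 in log2 units, means 8.12 and 9.17, adjusted p = 0.00088). It was the only member called at 42 °C against untreated cells, where 1.18% of all probes were called higher. Cox6a2 was higher at 52 °C (1.16, means 9.60 and 8.44, adjusted p = 0.0024). Ndufa9 was lower at 52 °C (-0.51, means 10.94 and 11.45, adjusted p = 0.0302), and so was Atp5pb probe 5870402 (-0.55, means 6.98 and 7.52, adjusted p = 0.0437). In fits without 1 array, Uqcrb and Cox6a2 passed in 6 of 6 and the other 2 in 1 of 6. The cause of these differences was not tested.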

How the results depend on the processing

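Counts of called members are given in the order 18 kHz, 18 against 1 kHz, 42, 47 and 52 °C, and 52 against 42 °C, where those reported were 2, 0, 1, 4, 8 and 4. At 1 kHz every alternative listed here gave 0. All counts in this paragraph are given without the share of all probes called under the same setting. They do not tell whether members changed more often than other probes. Without background correction the counts were 10, 7, 2, 9, 17 and 9. With array weights they were 20, 14, 4, 15, 26 and 17, and from the deposited log2 values 17, 19, 2, 13, 21 and 9. Scaling by the median gave 49, 58, 1, 19, 43 and 10, with member medians of -1.14, -1.19, -0.077, -0.35, -0.56 and -0.48, and turned Atp5g2 at 52 °C to -0.035. A trended and robust prior gave 10, 6, 2, 8 and 14 before the last. An offset of 50 gave 5 at 18 kHz, 2 against 1 kHz and 14 at 52 °C. Probes detected on every array gave 7, 6 and 13 for the same comparisons. At 18 kHz the count was 1 without a detection filter (member median -0.004), 0 with 1 probe per gene (member median at 42 °C 0.048), 1 with the beadchip as a block, 0 within the second beadchip of batch A, and 0 with only the 2 groups fitted. That last setting gave 7 at 47 °C, 2 at 52 °C and 2 between 52 and 42 °C. With replicate 3 as the only 18 kHz array, an alternative chosen after seeing the data, the count was 0 and the member median against 1 kHz 0.003. The first beadchip of batch A held 1 array at 18 kHz and 2 at 1 kHz, too few for a count to be read. Each beadchip of batch B held only 1 array of some groups, so member medians alone are given. Within the first they were 0.13 at 42 °C and -0.16 between 52 and 42 °C. Within the second the median was -0.058 at 42 °C. Samples share replicate numbers, and no pairing was assumed: in no comparison were all 3 correlations of same-numbered arrays above 0.1. Between 18 and 1 kHz these were 0.456, 0.215 and -0.192, and the arrays of replicates 1 and 2, but not 3, shared a beadchip. The correlations cannot show that pairing was absent. The replicate block gave 1, 0, 1, 3, 5 and 2. Leaving out 1 array gave 0 to 28, 0 to 22, 1 to 1, 0 to 5, 1 to 20 and 2 to 10, and 0 to 0 at 1 kHz. The highest counts came without 18 kHz replicate 3 and without 52 °C replicate 1. The member medians then ranged from -0.12 to -0.04, -0.16 to -0.05, 0.005 to 0.054, 0.059 to 0.14, -0.08 to -0.02 and -0.12 to -0.04, and from -0.07 to -0.01 at 1 kHz. Of the values of the called members under alternatives, 262 kept direction and call, 129 kept direction only and 1 turned. The causes were not tested. Arrays with low signal, those at 18 kHz above all, limit what dim probes show.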
